A study of Homo sapiens with 23 samples.

Results

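The collagen genes were taken as every gene of the expression table whose symbol has the form of COL, a type number, A and a chain number, leaving out COL17A1. This gave 43 of 58358 genes. The rule used symbols and no measured value, though it was set with earlier results of these data known. RNA of 13 lines of MCF10A, a non-transformed human mammary epithelial cell line, was sequenced with 1 library per line. The groups were 4 mutants of residues that touch DNA (R273H, R273C, R248W, R248Q), 6 structural mutants (Y234C, Y220C, Y163C, R175H, H179R, G245S) and 3 control lines. The mutant lines stably expressed 1 missense p53 protein each from a lentiviral vector. The controls were WTKD, in which wild-type p53 was knocked down with shRNA, WTOE, which overexpressed V5-tagged wild-type p53 from a different lentiviral vector, and WT, the parental cells. The study describes the vector of the mutants in no control line. Mutation and vector therefore cannot be told apart in any comparison of mutant with control lines. With 1 line per mutation, a mutation also cannot be told apart from the history of its line. V5 ChIP-seq peak lists of 4 mutants (Y220C, R273C, R273H and Y234C) and of WTOE, each called against input DNA, gave a second readout.

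Collagens are secreted or membrane-bound proteins in which chains wind around each other as a triple helix, and the helix needs a glycine in every triplet of residues because only glycine is small enough for its core. The chains are hydroxylated and folded in the endoplasmic reticulum, then trimmed, assembled and crosslinked outside the cell. Fibrillar collagens build the cables of connective tissue and are made mainly by fibroblasts. Epithelial cells such as those of the breast rest on a basement membrane, a sheet whose backbone is a network of collagen IV held together with laminins, nidogens and perlecan. FACIT collagens decorate fibrils, short-chain collagens form hexagonal lattices, collagen VI forms beaded filaments, and collagen VII anchors the basement membrane to the stroma beneath it.

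Between 12122 (R273H) and 15975 (Y163C) genes were above 0, and the R273H, Y234C and WT libraries had the most tested genes at 0, with 3691, 3403 and 3337. In R273H and Y234C the 50 highest genes took 37.4 and 46.8% of the TPM, beside 27.1 to 33.6% in the other 11 libraries, so both comparisons are also given without them. Read counts were not part of the table, so depth is unknown. The 11 basal mammary markers were all above 0 in some lines, but TP63, a transcription factor of basal epithelium, was listed at 0 in R248W, R273C and R273H, KRT14 was listed at 0 in R273H, and CDH1, the epithelial cadherin, was only 0.96 in R248Q and 0.25 in R273H on the log2(TPM + 1) scale. The 4 endothelial markers summed to at most 6.13 TPM. The 7 luminal mammary markers summed to 97.8 to 634 TPM in the mutant lines and 256 to 350 TPM in the control lines. The 8 fibroblast markers summed to 160 to 515 TPM in the mutant lines and 104 to 123 TPM in the control lines, and FBLN1, a matrix glycoprotein, made up 62.8 to 97.5% of that sum in each line. In bulk RNA, fewer cells of a type and less RNA per cell cannot be told apart.

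The collagen IV genes lie in pairs that point away from each other, and the DNA between their starts is shown because the expression results below turn on these pairs. COL4A1 (ENSG00000187498, chromosome 13 from 110148963 to 110307157, minus strand) and COL4A2 (ENSG00000134871, chromosome 13 from 110305812 to 110513209, plus strand) start 126 bases apart in RefSeq's GRCh38.p14 annotation. COL4A5 (ENSG00000188153, chromosome X from 108439838 to 108697545, plus strand) and COL4A6 (ENSG00000197565, chromosome X from 108155607 to 108439497, minus strand) start 379 bases apart, and COL4A4 and COL4A3 on chromosome 2 start 418 bases apart. COL12A1 (ENSG00000111799, chromosome 6 from 75084326 to 75206267, minus strand), the gene of the main FACIT collagen here, stands alone. Printed 5′ to 3′ on the strand named, with CCAAT boxes (CCAAT, or ATTGG on the other strand) and GC boxes (GGGCGG, or CCGCCC) in capitals, they are as follows.
COL4A1 and COL4A2, the whole interval between the starts, chr13:110307158-110307283, plus strand: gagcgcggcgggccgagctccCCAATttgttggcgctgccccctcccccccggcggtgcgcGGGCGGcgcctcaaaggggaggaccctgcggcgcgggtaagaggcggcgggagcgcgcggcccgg
COL4A5, 250 bases before its start, chrX:108439588-108439837, plus strand: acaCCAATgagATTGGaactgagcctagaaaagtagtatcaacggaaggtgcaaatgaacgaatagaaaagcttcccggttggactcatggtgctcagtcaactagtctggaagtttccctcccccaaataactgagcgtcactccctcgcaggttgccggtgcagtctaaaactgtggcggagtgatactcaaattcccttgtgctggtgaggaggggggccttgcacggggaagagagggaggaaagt
COL4A6, 250 bases before its start, chrX:108439459-108439708, minus strand: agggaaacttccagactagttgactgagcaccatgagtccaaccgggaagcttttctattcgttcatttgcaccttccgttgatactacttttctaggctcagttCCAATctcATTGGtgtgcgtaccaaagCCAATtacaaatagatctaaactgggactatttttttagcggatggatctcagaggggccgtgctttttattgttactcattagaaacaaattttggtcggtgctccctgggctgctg
COL12A1, 250 bases before its start, chr6:75206054-75206303, minus strand: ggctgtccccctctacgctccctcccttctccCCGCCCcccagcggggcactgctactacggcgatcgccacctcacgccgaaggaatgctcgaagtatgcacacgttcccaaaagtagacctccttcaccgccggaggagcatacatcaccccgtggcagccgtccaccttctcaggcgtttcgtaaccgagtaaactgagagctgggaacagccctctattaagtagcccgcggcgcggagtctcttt
The COL4A1 and COL4A2 interval held 1 CCAAT box and 1 GC box and was 80.2% G and C. Among 35116 RefSeq promoters, 21.1% held a CCAAT box and 34.6% a GC box in a window of 126 bases. COL4A5 had 2 CCAAT boxes and COL4A6 had 3 in 250 bases, where 32.0% of all promoters had at least 1. Another RefSeq promoter of COL4A6, not printed, had 0 CCAAT boxes and 1 GC box. The spacing of 379 bases holds for the printed one. COL12A1 had 1 GC box and no CCAAT box, and 42.6% of all promoters of that length held a GC box. The windows of COL4A5 and COL4A6 overlap, so their CCAAT boxes are partly the same bases. Of the 43 members, 31 were in the RefSeq promoter table, 10 of them among the 14 expressed genes. None of the 31 held a p53 half-site (the decamer that p53 binds in pairs) within 250 bases before the start, against 5.57% of all promoters. A match or its lack in these windows describes the letters only.

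The coding sequence of each highest member of the 3 classes that carried most collagen mRNA is shown for the repeat that makes it a collagen. Glycine codons (GGN), the first of each triplet of codons, are in capitals, and the reading frame starts at the first base.
COL8A1, exon 4 of its canonical transcript, chr3:99794952-99795005, plus strand: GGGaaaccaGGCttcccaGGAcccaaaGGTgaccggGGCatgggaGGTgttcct
COL12A1, exon 57, chr6:75101999-75102052, minus strand: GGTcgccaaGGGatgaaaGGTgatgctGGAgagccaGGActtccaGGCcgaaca
COL4A2, exon 29, chr13:110473069-110473122, plus strand: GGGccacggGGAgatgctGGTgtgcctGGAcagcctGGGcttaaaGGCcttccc
The longest unbroken run of such triplets was 61 in COL8A1, 32 in COL12A1 and 66 in COL4A2, against 338 in the fibrillar COL1A1. Runs of triplets took up 79.8% of the codons of COL4A1 and 8.23% of those of COL12A1, most of which encodes globular modules.

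Collagen mRNA in these lines came from few genes, and fibrillar collagens gave little of it. With a threshold of 1 on the log2(TPM + 1) scale in at least 3 lines, 14 of 43 members were expressed, namely COL1A1, COL4A1, COL4A2, COL4A4, COL4A5, COL4A6, COL5A2, COL6A1, COL7A1, COL8A1, COL10A1, COL12A1, COL16A1 and COL27A1. Only COL4A1, COL4A2, COL4A5, COL4A6, COL8A1 and COL12A1 were above 0 in all 13 lines. The other 29 members failed the filter, 15 of them listed at 0 in every line. Among those 15 were COL1A2, the partner of COL1A1 in collagen I, and COL5A1, the main chain of collagen V. Another 7 of the 29 were above 0 somewhere but never reached 1, and 7 reached 1 in 1 or 2 lines. The filter counted lines of any group, so a gene high in a single line could not pass.

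**Figure D1:**
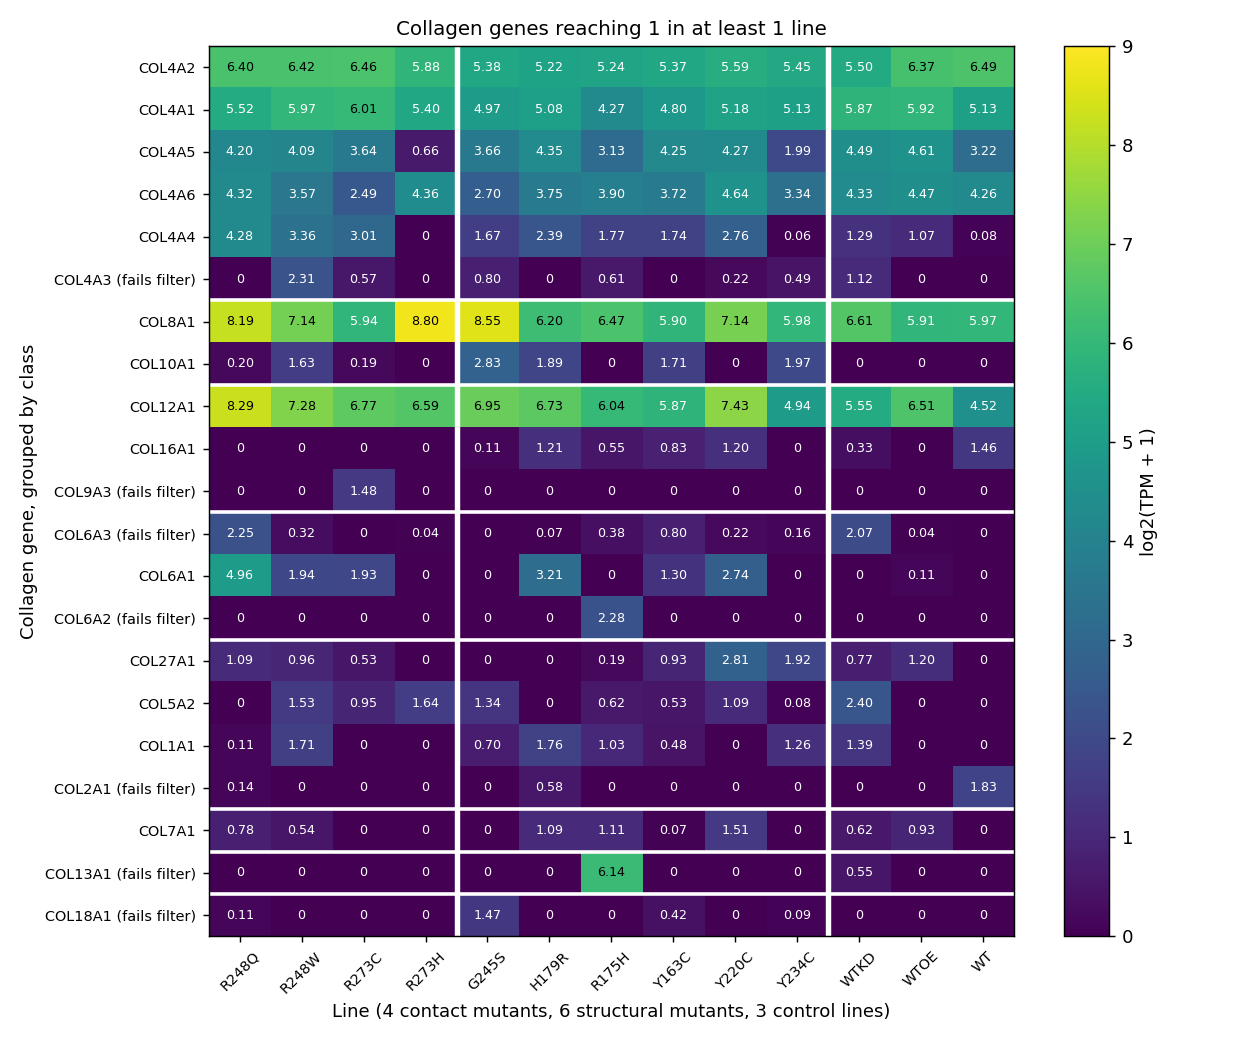
The 21 collagen genes that reached 1 in at least 1 line are in rows, grouped by class, and the 13 lines are in columns, contact mutants first, then structural mutants and control lines. Colour and printed value give log2(TPM + 1), 1 library per line. COL8A1, COL12A1, COL4A1 and COL4A2 were high throughout, whereas COL13A1 reached 6.14 in R175H alone.

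The summed TPM of all 43 collagen genes was 823 in R248Q, 492 in R248W, 349 in R273C and 662 in R273H. Among structural mutants it was 597 in G245S, 299 in H179R, 309 in R175H, 225 in Y163C, 460 in Y220C and 188 in Y234C, and the controls had 299 in WTKD, 339 in WTOE and 237 in WT. Thus 6 mutant lines lay above every control, 2 lay below every control and 2 lay among them. The mean was 581 ± 206 TPM in contact mutants (SD, n = 4), 347 ± 154 in structural mutants (SD, n = 6) and 291 ± 51.1 in control lines (SD, n = 3). COL4A1, COL4A2, COL8A1 and COL12A1 together held 67.0% (R175H) to 96.6% (R273H) of it. Besides the total, the lines differed in which class carried it.

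Basement membrane network collagens summed to 166 ± 31.5 TPM in contact mutants, 99.2 ± 17.7 TPM in structural mutants and 160 ± 23.1 TPM in control lines. Short-chain collagens, almost all COL8A1, ranged over 60.5 to 446 TPM in the mutant lines and 59.1 to 96.4 TPM in the control lines. FACIT collagens, almost all COL12A1, ranged over 29.7 to 311 TPM in the mutants and 23.6 to 90.3 TPM in the controls. The network class made up 62.9% of collagen TPM in the library labelled WT and 15.3% in G245S, where the short-chain class held 63.5%. Fibrillar collagens never exceeded 7.14 TPM, the value in Y220C. R175H stood out with 69.3 TPM of transmembrane collagen, from COL13A1, where no other line passed 0.47 TPM.

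**Figure D2:**
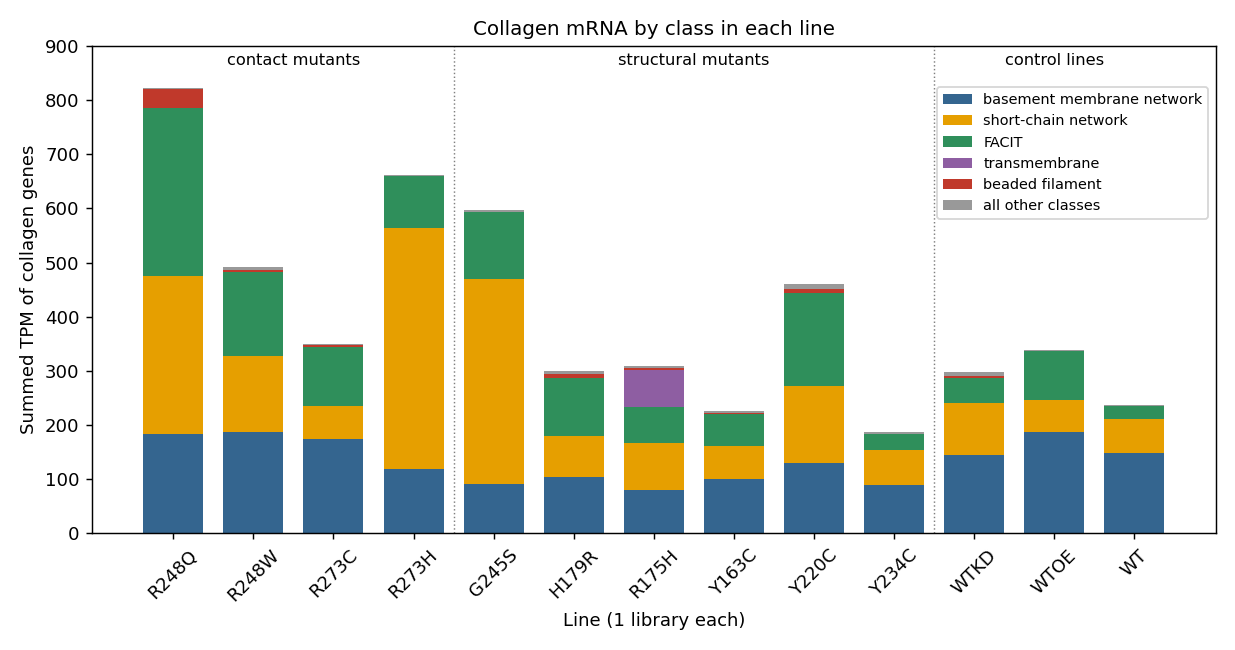
Stacked bars give the summed TPM of collagen genes by class in each of 13 lines, contact mutants at the left, structural mutants in the middle and control lines at the right, 1 library per line and so no error bars. R248Q was highest at 823 TPM, and R273H and G245S owed most of their total to the short-chain class.

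COL4A1 and COL4A2 encode the 2 chains of the most widespread collagen IV trimer, and both were high in every line. COL4A2 was 6.40 in R248Q, 6.42 in R248W, 6.46 in R273C and 5.88 in R273H. In structural mutants it was 5.38 in G245S, 5.22 in H179R, 5.24 in R175H, 5.37 in Y163C, 5.59 in Y220C and 5.45 in Y234C, and in the controls 5.50 in WTKD, 6.37 in WTOE and 6.49 in WT. Every contact mutant was above every structural mutant, and the controls spanned both. COL4A1 was 5.52, 5.97, 6.01 and 5.40 in the contact mutants in the same order. It was 4.97, 5.08, 4.27, 4.80, 5.18 and 5.13 in the structural mutants and 5.87, 5.92 and 5.13 in WTKD, WTOE and WT. Again no contact mutant overlapped a structural one, with Y220C the nearest of the structural lines. COL4A2 exceeded COL4A1 in all lines except WTKD, in which COL4A1 was 0.37 higher on the log2 scale, and the gap was widest in the library labelled WT, at -1.36.

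Across the 13 lines COL4A1 followed COL4A2, with a Pearson's r of 0.69 (permutation p = 0.0111, adjusted 0.0222 over the 2 pairs computed) and a Spearman's rho of 0.77 (permutation p = 0.00308, adjusted 0.00616). Without R175H and R273C, the lines farthest from the median of COL4A1, r was 0.58. Since contact and structural mutants did not overlap in either gene, the relation was also taken within the 6 structural mutants. It had an r of 0.58 there (exact permutation p = 0.208) and a rho of 0.66 (exact permutation p = 0.175), which does not pass 0.05 with 6 lines although the size was close to that over 13 lines. Over the 10 mutants r was 0.89, and over all lines except R273H and Y234C it was 0.68. The 4 contact mutants are too few for a value of their own. The r between genes detected and level was 0.22 for COL4A1 and -0.05 for COL4A2.

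The second pair behaved differently. COL4A5 and COL4A6 encode the chains of a trimer found under some epithelia, including that of the breast. COL4A5 was 4.20 in R248Q, 4.09 in R248W, 3.64 in R273C and only 0.66 in R273H. It was 3.66 in G245S, 4.35 in H179R, 3.13 in R175H, 4.25 in Y163C, 4.27 in Y220C and 1.99 in Y234C, and 4.49, 4.61 and 3.22 in WTKD, WTOE and WT. The 2 lowest lines were R273H and Y234C, whose libraries also had the most tested genes at 0. COL4A6 was not low there, at 4.36 in R273H and 3.34 in Y234C. Elsewhere it was 4.32 in R248Q, 3.57 in R248W, 2.49 in R273C, 2.70 in G245S, 3.75 in H179R, 3.90 in R175H, 3.72 in Y163C and 4.64 in Y220C. The controls were close together at 4.33, 4.47 and 4.26.

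In R273H COL4A5 lay 3.70 below COL4A6 on the log2 scale, and in R273C, mutated at the same residue, it lay 1.15 above it. Over 13 lines the pair had an r of 0.06 (permutation p = 0.834, adjusted 0.834) and a rho of 0.37 (permutation p = 0.217, adjusted 0.217). Without R273H and Y234C, which are also the lines farthest from the median of COL4A5, r was 0.39. The r of COL4A5 with the number of genes detected was 0.67, and the part of library complexity in its low values was not tested.

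**Figure D3:**
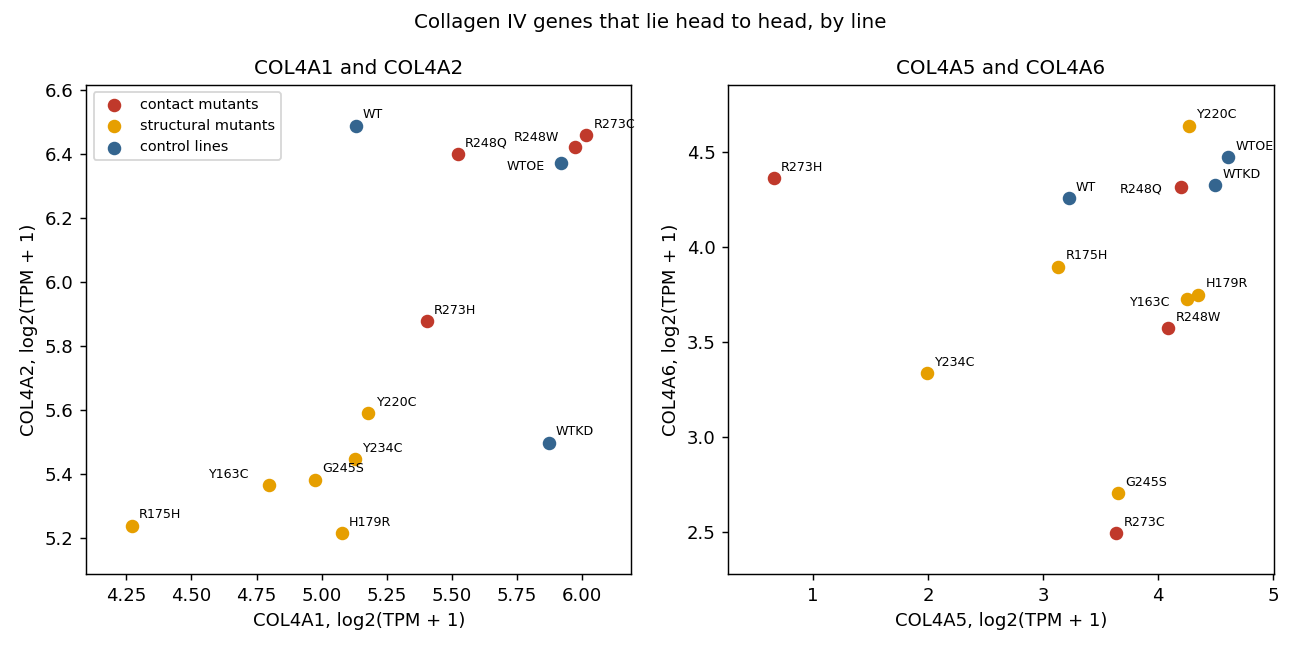
Each point is a line, with COL4A1 against COL4A2 at the left and COL4A5 against COL4A6 at the right, both axes in log2(TPM + 1), coloured by group. Contact mutants lie above and to the right of structural mutants at the left (r of 0.69 over 13 lines), and R273H lies alone at the far left of the other panel, at 0.66 for COL4A5.

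COL4A4 and COL4A3 encode chains of the trimer best known from the kidney and lung. COL4A4 was 4.28 in R248Q, 3.36 in R248W, 3.01 in R273C and listed at 0 in R273H. It was 1.67 in G245S, 2.39 in H179R, 1.77 in R175H, 1.74 in Y163C, 2.76 in Y220C and 0.06 in Y234C, and 1.29, 1.07 and 0.08 in WTKD, WTOE and WT. The 3 libraries at or near 0 were R273H, Y234C and WT, those with the most tested genes at 0. COL4A3 failed the filter, with 2.31 in R248W and 1.12 in WTKD as its only values above 1. COL4A4 was thus the higher of this pair in 11 lines, both were listed at 0 in R273H, and COL4A3 was the higher in Y234C.

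COL8A1 (ENSG00000144810, chromosome 3 from 99638475 to 99799226, plus strand) encodes a short-chain collagen made by endothelial and other cells during matrix remodelling, and it reached the highest level of any collagen gene. It was 8.19 in R248Q, 7.14 in R248W, 5.94 in R273C and 8.80 in R273H. It was 8.55 in G245S, 6.20 in H179R, 6.47 in R175H, 5.90 in Y163C, 7.14 in Y220C and 5.98 in Y234C, and 6.61, 5.91 and 5.97 in WTKD, WTOE and WT. R273H, G245S and R248Q stood apart at the top, R248W and Y220C came next, and R273C, Y163C and Y234C were close to the lowest control. R273H and R273C, which share a residue, were at the top and near the bottom of this order. R273H, G245S and R248Q were also the lines with the least CDH1 (0.25, 4.47 and 0.96, against 5.41 to 6.41 elsewhere). EPCAM, an epithelial adhesion molecule, was least there too (3.51, 5.16 and 2.53, against 6.70 to 8.17 elsewhere). These 2 were picked from the 11 basal markers after the values were seen, and their part in COL8A1 was not tested. Others of the 11 did not share this order. KRT14 and ITGB4 were highest of all lines in R248Q (8.23 and 7.76) and lowest in R273H (0 and 4.51). KRT6A was highest in R273H (10.98) and lowest in R248Q (9.02). COL10A1, another short-chain collagen and a marker of hypertrophic cartilage, was listed at 0 in the 3 controls and in R273H, R175H and Y220C. Its highest values were 2.83 in G245S, 1.97 in Y234C, 1.89 in H179R, 1.71 in Y163C and 1.63 in R248W.

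COL12A1, a FACIT collagen that links fibrils to other matrix, was 8.29 in R248Q, 7.28 in R248W, 6.77 in R273C and 6.59 in R273H. It was 6.95 in G245S, 6.73 in H179R, 6.04 in R175H, 5.87 in Y163C, 7.43 in Y220C and 4.94 in Y234C, and 5.55, 6.51 and 4.52 in WTKD, WTOE and WT. Of the mutant lines 9 were above WTKD and the library labelled WT, and 7 were also above the library labelled WTOE. All 4 contact mutants were above every control, while Y234C lay between WT and WTKD. COL16A1, a minor FACIT, was listed at 0 in all 4 contact mutants and reached 1.21 in H179R, 1.20 in Y220C and 1.46 in the library labelled WT. COL9A3, a FACIT of cartilage, reached 1.48 in R273C and was listed at 0 in the other 12 lines.

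Collagen VI needs all of its chains, and no line had its 3 classical chains listed at 1 or more together. A listed 0 can also be a gene missed at low depth, so a chain is not shown to be absent. COL6A1 (ENSG00000142156, chromosome 21 from 45981770 to 46005050, plus strand) was 4.96 in R248Q, 1.94 in R248W, 1.93 in R273C, 3.21 in H179R, 1.30 in Y163C and 2.74 in Y220C. It was listed at 0 in R273H, G245S, R175H, Y234C, WTKD and WT and was 0.11 in WTOE. COL6A2, its neighbour on the chromosome and its partner in the trimer, was listed at 0 in 12 lines and was 2.28 in R175H, where COL6A1 was at 0. COL6A3, the longest of the chains, reached 2.25 in R248Q and 2.07 in WTKD.

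Fibrillar members were low and differed between lines without an order by group. COL5A2 was highest in WTKD at 2.40, COL27A1 in Y220C at 2.81 and COL1A1 in H179R at 1.76. COL1A2 was listed at 0 in every line, so COL1A1 had no measured partner. COL2A1, the collagen of cartilage, reached 1.83 in the library labelled WT. COL7A1, the anchoring fibril collagen of basal epithelia, was at most 1.51, in Y220C, and was listed at 0 in 5 lines. COL18A1, a basement membrane proteoglycan that yields endostatin, reached 1.47 in G245S. COL13A1 (ENSG00000197467, chromosome 10 from 69801880 to 69964275, plus strand), a transmembrane collagen of cell adhesions, was 6.14 in R175H, 0.55 in WTKD and listed at 0 in the other 11 lines. With 1 library per line, the R175H value has no replicate, and a 0 elsewhere can be a gene missed at low depth.

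The first comparison asked whether the mutant lines as a group differed from the control lines. Several collagens averaged higher in the mutants, but the spread between lines was as large as the differences. COL6A1 averaged 1.61 ± 1.69 in the mutants (SD, n = 10) and 0.04 ± 0.06 in the controls (SD, n = 3), a log2 difference of 1.57 (SE 0.89, limma adjusted p = 0.932). COL4A4 differed by 1.29 (2.10 ± 1.36 against 0.81 ± 0.64, SE 0.76), COL12A1 by 1.16 (6.69 ± 0.92 against 5.52 ± 1.00, SE 0.61) and COL8A1 by 0.87 (7.03 ± 1.13 against 6.16 ± 0.39, SE 0.65), each with a limma adjusted p of 0.932. COL10A1 averaged 1.04 in the mutants and was listed at 0 in every control, so no fold is given, and its limma adjusted p was also 0.932. For each of these 5 genes the mutant and control ranges overlapped.

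Among the 14 expressed collagens 7 had a positive and 7 a negative difference, with a median of 0.09 beside -0.08 over all 14884 genes tested. None of the 14 passed limma at an adjusted p under 0.05, against 3 of all genes (0.0202%), and none had an unadjusted p under 0.05, against 4.83% of all genes. No collagen lay wholly above or wholly below the controls, as 0.222% and 0.779% of all genes did. The sum of the fibroblast markers, most of it FBLN1 in every line, was higher in the mutants. It was highest in R248Q, which had 515 TPM of them and the most collagen mRNA. Of the 6 fibroblast markers tested, 5 had a positive difference, with a median of 1.16, and FAP had a negative one (-0.07). PDGFRA and THY1 failed the filter and averaged lower in the mutants (0.28 against 0.36 and 0.00 against 0.54). Basal mammary markers moved too, 8 of 11 with a negative difference and a median of -0.56. The part of either list in the collagen values was not tested. With R273H and Y234C left out, which was decided after seeing the data, the difference of COL4A4 was 1.81 (limma adjusted p = 0.493), that of COL6A1 1.97, of COL12A1 1.40, of COL10A1 1.06 and of COL8A1 0.78, and again no collagen was called. The library labelled WT, a control, was the third with many tested genes at 0. Leaving it out lowered the difference of COL12A1 to 0.66 and that of COL4A4 to 0.93. That of COL6A1 was then 1.55 and that of COL10A1 1.04.

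The second comparison asked whether DNA contact mutants differed from structural mutants. COL4A2 averaged 6.29 ± 0.28 in contact mutants (SD, n = 4) and 5.37 ± 0.14 in structural mutants (SD, n = 6), a log2 difference of 0.92 (SE 0.39, limma adjusted p = 0.960). COL4A1, named here after its values were seen, averaged 5.73 ± 0.31 and 4.90 ± 0.34 in the same groups, a difference of 0.82 (SE 0.41, limma adjusted p = 0.960). These were 2 of the 14 expressed collagens, and the only ones, whose contact values were all above the structural values, as were those of 0.766% of all genes tested. None lay wholly below, against 0.262% of all genes. The 2 genes share a start region and follow each other, so they are not separate observations. The values of the controls, 5.50 to 6.49 for COL4A2 and 5.13 to 5.92 for COL4A1, overlapped both mutant groups. Basal mammary markers moved with this comparison. Of the 11, 9 had a negative difference, with a median of -0.85 beside 0.01 over all genes, and 3 (27.3%) had an unadjusted p under 0.05 beside 4.93% of all genes, though none was called. TP63 differed by -3.11 (limma adjusted p = 0.764), CDH1 by -2.40 and KRT17 by -1.97, and KRT5 lay wholly below the structural mutants. The markers summed to 2811 to 4107 TPM in contact mutants and 3317 to 6421 TPM in structural mutants, and their part in the collagen differences was not tested.

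COL6A1 differed by 1.00 (2.21 ± 2.05 in contact against 1.21 ± 1.47 in structural mutants, SE 0.92, limma adjusted p = 0.978), COL4A4 by 0.93 (2.66 ± 1.86 against 1.73 ± 0.93, SE 0.77, limma adjusted p = 0.977), COL12A1 by 0.91 (7.23 ± 0.76 against 6.33 ± 0.89, SE 0.56, limma adjusted p = 0.970) and COL10A1 by -0.90 (0.51 against 1.40, SE 0.63, limma adjusted p = 0.970). All 4 had overlapping groups. Without R248Q the difference was 0.08 for COL6A1, 0.39 for COL4A4 and 0.55 for COL12A1. Without R273H it was 1.74 for COL6A1 and 1.82 for COL4A4, and without Y234C it was 0.60 for COL4A4. Of the 14 collagens 8 had a positive and 6 a negative difference, with a median of 0.21 beside 0.01 over all genes. None passed limma at an adjusted p under 0.05, nor did any of the 14884 genes (0.0%), and 1 collagen (COL4A2) against 4.93% of all genes had an unadjusted p under 0.05. Without R273H and Y234C the difference was 1.07 for COL4A2 (limma adjusted p = 0.651) and 0.98 for COL4A1 (limma adjusted p = 0.657). It was 1.49 for both COL6A1 and COL4A4, 0.84 for COL12A1 and -0.61 for COL10A1.

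**Figure D4:**
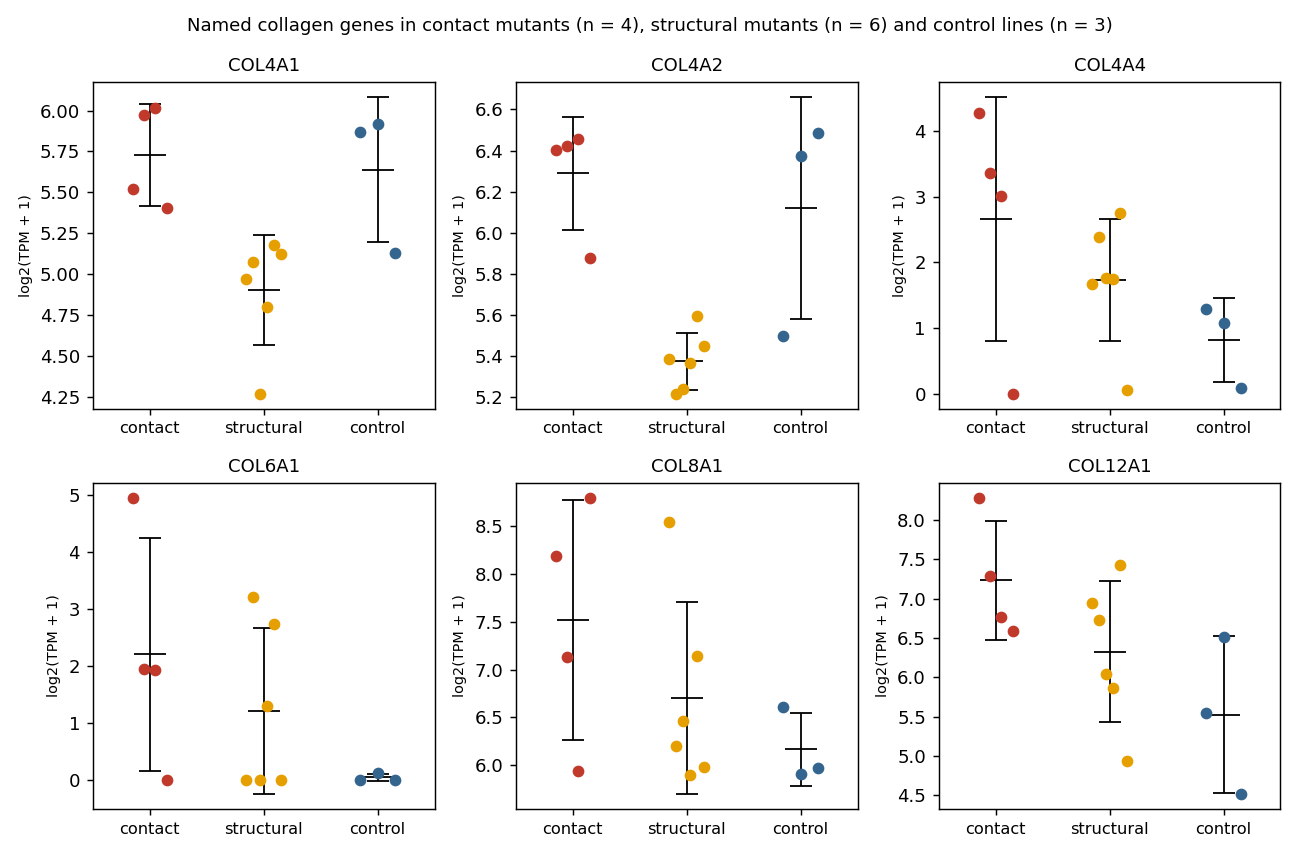
Points are lines, black bars the mean and SD, and the axes give log2(TPM + 1) with a range of its own for each gene, for contact mutants (n = 4), structural mutants (n = 6) and control lines (n = 3). COL4A1 and COL4A2 show contact mutants wholly above structural mutants with controls across both, while COL4A4, COL6A1, COL8A1 and COL12A1 overlap between contact and structural mutants.

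The proteins that make, fasten, bind and cut collagen were described by lists of other genes. Their counts stand beside those of all genes tested, of which 6697 of 14884 had a positive difference in mutants against controls and 7495 of 14884 in contact against structural mutants. Of 21 folding and modification enzymes 18 were tested, and none was called in either comparison. In contact mutants against structural mutants 14 of the 18 had a positive difference, with a median of 0.19, and 4 (22.2%) had an unadjusted p under 0.05, beside 4.93% of all genes. FKBP10, a chaperone of procollagen in the endoplasmic reticulum, was 4.33 to 6.52 in contact and 3.89 to 4.28 in structural mutants, a difference of 1.34 (SE 0.47, limma adjusted p = 0.960) with no overlap, as for 0.766% of all genes. SEC13, a coat protein of the vesicles that carry cargo out of the endoplasmic reticulum, differed by 1.19 (6.73 to 7.48 against 5.04 to 7.05). In mutants against controls the median of the 18 was -0.05. P3H2, which hydroxylates proline in collagen IV, differed by -0.89 (5.29 ± 0.56 against 6.18 ± 1.10) and PLOD1, which hydroxylates lysine, by 0.75 (7.26 ± 0.73 against 6.51 ± 0.80).

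Of 15 crosslinking and processing enzymes 10 were tested and 8 had a positive difference in mutants against controls, with a median of 0.67 beside -0.08 over all genes and none called. BMP1, the protease that removes the end of procollagens, averaged 3.34 ± 0.74 in mutants and 1.52 ± 1.20 in controls, a difference of 1.82 (SE 0.57, limma adjusted p = 0.659). TGM2, a crosslinking transglutaminase, differed by 1.21 there (4.58 ± 1.54 against 3.37 ± 0.74), and by 1.70 in contact against structural mutants (5.07 to 6.89 against 1.04 to 5.29). TLL1, a relative of BMP1, differed by -1.13 in contact against structural mutants (0.00 to 0.67 against 0.10 to 2.41). Of the 10, 4 were positive in that comparison and none was called.

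Of 12 receptors 8 were tested, 3 positive in mutants against controls and 2 positive in contact against structural mutants, none called. MRC2, an endocytic receptor that takes up collagen, averaged 2.78 ± 1.27 in mutants and 0.62 ± 0.64 in controls, a difference of 2.17 (SE 0.72, limma adjusted p = 0.706). It was also 1.54 higher in contact mutants, at 2.97 to 4.34 against 0.97 to 4.40 in structural mutants (limma adjusted p = 0.960). SDC1, a heparan sulfate proteoglycan of epithelia, lay below the controls in every mutant line (4.65 to 6.79 against 6.91 to 7.28, a difference of -1.08), as did 0.779% of all genes. DDR1, a collagen-activated kinase, differed by -0.89 in contact against structural mutants (2.21 to 3.88 against 2.84 to 4.53).

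The partners of collagen IV in the basement membrane did not move as one list. Of 15 partners 11 were tested, with 6 positive in mutants against controls, 7 positive in contact against structural mutants and none called. LAMA3, the alpha chain of laminin-332, was 3.18 to 7.85 in mutants and 8.26 to 8.61 in controls, again among the 0.779% wholly below, a difference of -1.96 (SE 0.77, limma adjusted p = 0.908). SPARC, which binds collagen, differed by 1.49 there (5.92 ± 1.04 against 4.43 ± 2.17). HSPG2, which encodes perlecan, was 4.36 to 5.74 in contact and 2.76 to 4.77 in structural mutants, a difference of 1.30 (SE 0.50, limma adjusted p = 0.960), and LAMA1 differed by 1.22 (0.24 to 3.24 against 0.00 to 1.73). Of 8 collagenases and related proteases 4 were tested, none called. MMP2, a gelatinase, differed by 1.76 in mutants against controls (2.24 ± 1.61 against 0.48 ± 0.53) and MMP14 by -0.49 (3.81 ± 0.96 against 4.30 ± 0.54). In contact against structural mutants all 4 differences were negative, MMP14 by -1.02 (2.72 to 3.74 against 3.18 to 5.51) and the cysteine protease CTSK by -0.98 (0.00 to 1.80 against 0.00 to 4.13).

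The peak lists were read for V5-tagged p53 at the collagen genes, as a peak anywhere in the gene or from 2500 bases before to 100 bases after its start. Each summit the authors list was counted as a peak. Y220C had 3 such peaks of 1575 in its list, R273C none of 733, R273H 20 of 25309 and Y234C 4 of 2145, and WTOE had 39 of 11277. All 27 mutant peaks had their summit in an intron. Of the 66 peaks 60 summits were intronic, 5 exonic and 1 was in a start region, that of COL9A3 in WTOE (fold enrichment 3.07, summit at -1541 bases from the start). No mutant list had a peak at a start region of any collagen gene, the COL4A1 and COL4A2 interval printed above included. Only the start of the canonical transcript of each gene was examined. No share over all genes was computed for start regions or introns, so neither count sets the collagen genes apart. Per megabase of gene the collagen genes held 0.452 summits in Y220C, 3.01 in R273H, 0.603 in Y234C and 5.73 in WTOE, beside 0.480, 2.64, 0.720 and 4.19 for all annotated genes. Of the summits inside collagen genes, COL23A1 alone, described below, held 2 of 3 in Y220C and 5 of 20 in R273H. It held 3 of 4 in Y234C and 22 of 38 in WTOE, so these densities rest in large part on 1 gene.

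In the mutant lists 11 collagen genes had a peak, none of them expressed, and 8 of them were listed at 0 in every line. Of the 43 members 32.6% were expressed, and 10 of the 11 were genes of 100 kb or more. Of the 26 collagen genes of that length 34.6% were expressed. Of all protein-coding genes with a summit in a mutant list 61.4% were expressed, beside 56.7% of all protein-coding genes, a background added after the peaks were seen. R273H peaks lay at COL6A6, COL14A1, COL18A1, COL20A1, COL22A1, COL23A1, COL24A1, COL26A1 and COL28A1, with COL23A1 and COL24A1 holding 5 each. Y220C peaks lay at COL21A1 and COL23A1, and Y234C peaks at COL5A1 and COL23A1. Of the expressed genes, only COL4A1 and COL4A2 had any peak, 2 and 1 in WTOE, each with a fold enrichment of 3.08 and a −log10 q of 1.73, near the list's limit. COL23A1 (ENSG00000050767, chromosome 5 from 178237476 to 178590393, minus strand), a transmembrane collagen of 353 kb, was in 4 lists, with 2 peaks in Y220C, 5 in R273H, 3 in Y234C and, in WTOE, 22 summits in 21 regions.

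That number did not belong to COL23A1 alone. In WTOE its density was 62.3 summits per megabase and that of the 1 megabase on either side was 45.5, both far above the 4.19 of all genes. In R273H the gene had 14.2 and its flanks 9.0 per megabase, in Y234C 8.50 and 10.0, and in Y220C 5.67 and 5.00. Of 1489 protein-coding genes of 200 kb or more, 2 had a higher WTOE density, 4 a higher one in Y220C, 13 in R273H and 8 in Y234C. The surroundings were examined after the peaks were seen.

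**Figure D5:**
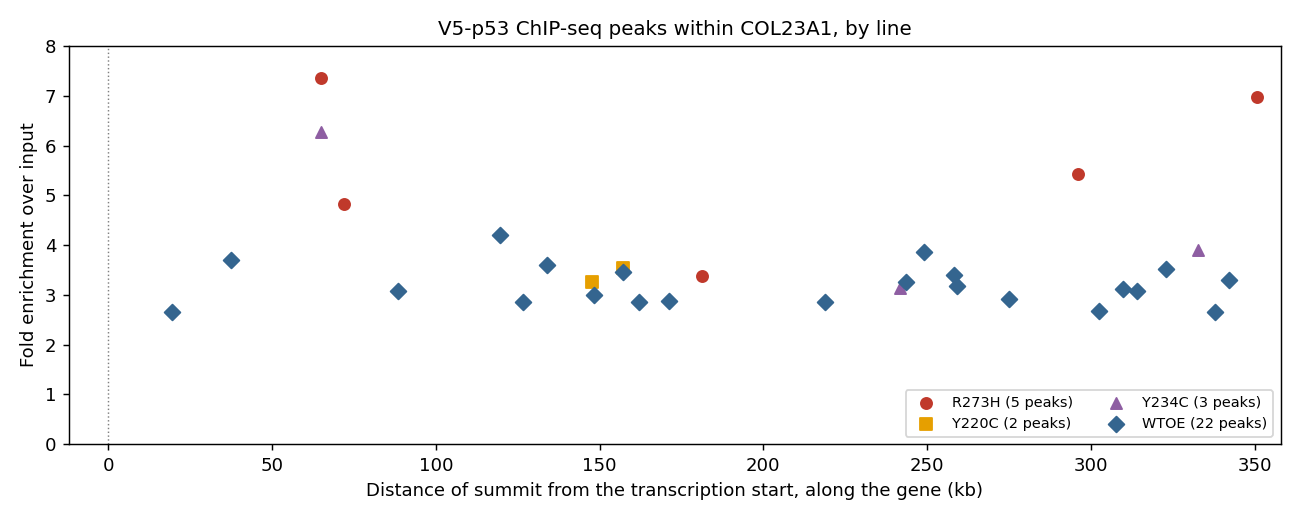
Each point is a peak summit within COL23A1, placed by its distance from the transcription start along the gene in kb and by its fold enrichment over input, for the lists of R273H, Y220C, Y234C and WTOE. The strongest R273H and Y234C peaks lie together, 64897 and 64841 bases from the start, and WTOE peaks stay between 2.65 and 4.20 along the gene.

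The strongest peaks of R273H and Y234C in COL23A1 are shown with the letters under them, because they fell on a repeat. R273H and Y234C each had a peak over chr5:178525352-178525630, the stretch their peaks share in an intron of COL23A1, with fold enrichments of 7.36 and 6.27 and −log10 q of 8.64 and 11.1. These 279 bases are a tandem repeat of 60 bases (99.1% identity between one copy and the next), with the first copy in capitals and no p53 half-site. They are printed from GRCh38, plus strand.
COL23A1, R273H and Y234C peak, chr5:178525352-178525630: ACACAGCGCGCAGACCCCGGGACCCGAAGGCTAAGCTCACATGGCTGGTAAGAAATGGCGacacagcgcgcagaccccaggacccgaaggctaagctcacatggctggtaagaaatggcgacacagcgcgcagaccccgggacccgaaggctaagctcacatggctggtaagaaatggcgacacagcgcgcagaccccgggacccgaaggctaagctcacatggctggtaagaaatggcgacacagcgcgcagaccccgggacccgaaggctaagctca
Of the 20 R273H peaks at collagen genes 4 (20.0%) had a summit window of 200 bases at least 80% identical to itself at some shift of up to 100 bases, beside 3.26% of all R273H peaks. In Y234C it was 1 of 4 beside 5.37% and in Y220C 0 of 3 beside 5.32%, and in WTOE 1 of 39 beside 1.86%. This description was chosen after the peaks were seen. The strongest R273H peak at a collagen gene lay in COL26A1 (fold enrichment 11.4, −log10 q of 16.7). Its window held a run of repeated TTTC but was at most 61.7% identical to itself at any shift, so the count leaves it out. Y220C and WTOE shared another place in COL23A1, chr5:178433165-178433430, with fold enrichments of 3.54 in Y220C and 3.46 in WTOE.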

How the data were processed

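RNA of 13 lines and V5 ChIP DNA of 5 lines, with input, were sequenced. For RNA-seq, the authors amplified cDNA from a single primer, used STAR on Ensembl GRCh38 to count reads per gene and left mitochondrial RNA out. The values they deposited are on a log2 scale, of TPM with 1 added. Duplicate reads, by the study's account the large majority in each library, were marked and not removed. Mitochondrial reads were, by the same account, a large and variable part of each library. For ChIP-seq, alignment was by Bowtie2 (2.1.0), filtering by SAMtools (1.7) and peak calling, for each line alone, by MACS2 (2.1.2.20181017) with a q limit of 0.05, as the submitters' processing notes and the study's methods give them. In the deposited lists, fold enrichment is a ratio of ChIP to input signal at the summit. The −log10 values deposited there are of p- and q-values, and the score deposited with them, a multiple of −log10 q, was not used further. Counts were not analysed here, so depth is unknown and no count model was used. TPM is relative, so a few very high genes lower all others.

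The collagen genes, the 9 classes and the gene lists were chosen with earlier results of these data known. Genes at 1 or more in at least 3 lines (14884) were fitted with limma 3.58.1 in R 4.3.3, two-sided, without covariates, with Benjamini-Hochberg adjustment over all genes and a threshold of 0.05. The lines of a group stand as its samples, so p measures the spread between lines. Correlations used 100000 permutations, or exact permutation within structural mutants, two-sided (Python 3.11.15, numpy 2.4.6, pandas 2.3.3, scipy 1.17.1; figures with matplotlib 3.10.9). Scripts were tested on simulated data. Peaks were matched to GENCODE 44 genes on GRCh38 with an overlap of at least 1 base, 43 of 43 collagen genes being found by gene ID. Every expressed collagen gene was named, with each line's value for those reaching 4. Differences are given for the 5 expressed collagens of largest difference in each comparison and for the 2 largest genes of each list. Alternatives were the pseudocount (0.1), no filter, a filter of 7 lines, quantile normalization, rescaling without the 50 highest genes, limma trend, genes detected as a covariate, each line left out, a stricter q (0.001) and summit position. Some items are not reported here.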

Additional observations from a re-analysis of the deposited data

Results flagged for a closer look

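Among the 21 collagen genes that reached 1 in some line, 59 groups of contact mutants (n = 4), structural mutants (n = 6) or all mutants (n = 10) held more than 1 value and were searched for a line far from the others by Dixon's test at 95%. It picked out 19, and in 9 of these a single line was above 0 while the rest of its group was at 0. The nominal rate of the test, about 1 in 20, does not apply to this count, so no excess over chance is claimed. Genes were searched because some line reached 1, and for COL13A1, COL6A2, COL9A3 and COL18A1 that line was then picked out. A single line above 0 is picked out whatever its value. The groups of all mutants also hold the lines of the other groups again. COL13A1, at 6.14 in R175H, was alone above 0 among both structural mutants and all mutants, and so was COL6A2 in the same line, at 2.28. COL9A3 at 1.48 in R273C was alone among contact mutants and among all mutants. COL4A3 at 2.31 in R248W stood apart among all mutants. COL6A3 at 2.25 in R248Q stood apart among contact mutants and among all mutants.

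COL4A5 at 0.66 in R273H lay below the other contact mutants, the nearest of which was 3.64, and COL4A2 at 5.88 in the same line lay below the nearest at 6.40. COL1A1 at 1.71 and COL10A1 at 1.63, both in R248W, were high among contact mutants. COL18A1 was high in G245S at 1.47, among structural and all mutants, and at 0.11 in R248Q was the only contact mutant above 0. COL2A1 was alone above 0 in R248Q among contact mutants at 0.14, and in H179R, at 0.58, it stood apart among structural and all mutants. R248Q and R248W each gave 3 genes here, and no line was replicated.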

How the results depend on the processing

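No collagen gene was called in either comparison under any alternative, and the differences of the 5 named genes in mutants against controls and of the 6 in contact against structural mutants kept their sign under every alternative that gave a value (COL6A1 and COL10A1 had none under the filter of 7 lines). Adjusted p for these ranged from 0.493 to 1.00. With a pseudocount of 0.1 the difference of COL6A1 was 3.14 and 1.79 in these comparisons and that of COL10A1 2.73 and -1.62. Over all genes, calls in mutants against controls were 6 with a pseudocount of 0.1, 5 without a filter, 0 with the filter of 7 lines, 6 rescaled without the 50 highest genes, 5 with genes detected as covariate, 8 without R273H and Y234C (chosen after seeing the data), and 0 to 11 with one line left out, 0 without R248W, G245S, H179R, Y163C or Y220C and 11 without WTKD. In contact against structural mutants they were 5, 1 and 2 for pseudocount, no filter and rescaling, 1 without R273H and Y234C, and 0 to 1 with one line left out (1 without R273H or R175H). The median difference of all genes in mutants against controls was -0.08 as reported, 0.05 without a filter and 0.07 without R273H and Y234C. In contact against structural mutants it was 0.18 without R273H and -0.15 without Y234C. The causes of these shifts were not tested.

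The r of COL4A1 with COL4A2 ranged from 0.63 to 0.80 with one line left out. That of COL4A5 with COL4A6 was -0.060 after quantile normalization, -0.050 rescaled, and -0.033 (without Y234C) to 0.40 (without R273H) with one line left out. Rescaled without the 50 highest genes, mean collagen TPM was 633 in mutants and 408 in controls, the short-chain class 254 and 101, and the network class 180.3 and 224, in the same order of groups as before. At a q of 0.001, peaks at collagen genes numbered 0 in Y220C, 13 in R273H, 1 in Y234C and 5 in WTOE. No paired analysis was possible because replicate numbers only follow the order of accessions. Without replicate libraries or counts, a zero cannot be told from a gene missed at low depth, and low members, R273H, Y234C and the library labelled WT are the least certain.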
